A study of Homo sapiens with 6 samples.

Results

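Chemokines and interleukins are the secreted proteins by which leukocytes call and instruct each other, and the genes described here are those of these ligands together with their receptors. The members were the genes whose symbol is that of a CC, CXC or CX3C chemokine or receptor, an interleukin or interleukin receptor, a colony-stimulating factor or its receptor, or an interferon alpha, gamma or lambda gene or receptor, with at least 10 counts summed over the 6 samples. *IL2RA* and *IL3RA* were left out by this rule. It was met by 62 of the 20348 genes in the table, of which 16 were ligands, 43 receptors, 2 soluble antagonists and 1 an enzyme that shares the prefix. A further 111 rows had a matching symbol and fewer counts, and 62 of the 174 matching rows had 0 counts in every sample. *CSF2RA* was listed under a pair of identifiers with identical counts and was counted as 1 gene.

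RNA-seq was made from MV4-11 cells, an established human acute myeloid leukemia (AML) line. The 3 Control samples were untreated, and the 3 WNK463 samples had received the WNK kinase inhibitor WNK463 at 1 μM for 48 h, by the study's methods. The comparison asks which transcripts changed under WNK inhibition in this cell line. The labels do not say that the samples came from separate cultures, so the p-values measure the spread between these samples, which may be technical, and all values belong to a single line, dose and time.

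Chemokine receptors are G protein-coupled receptors that steer migrating cells along a chemokine gradient and, in the marrow, retain them there. Interleukin receptors have no G protein. Most are assembled from a private chain that recognises the ligand and a shared chain, such as the common gamma chain, the common beta chain or gp130, and signal through JAK kinases and STAT factors, whereas the interleukin-1 receptors signal through MYD88 and IRAK kinases. Myeloid cells are a main source of interleukin-1 beta and interleukin-8, and AML blasts often carry CXCR4, the interleukin-1 receptor accessory protein and the receptors of the colony-stimulating factors.

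The total counts per sample lay between 14915745 and 17411780. Levels are given as CPM, the counts divided by the TMM-scaled library size, and levels of different genes are compared only as TPM, which also allow for gene length. A gene passed at an adjusted p below 0.05 in edgeR's quasi-likelihood test, and was called when its absolute log2 fold change was also at least 1. All 8 genes of a list of myeloid leukemia markers were tested, with group means from 1.31 CPM for *MPO* with WNK463 to 368.8 CPM for *FLT3* in Control, and 4 passed higher and 3 lower. Among them *MPO*, a granule enzyme of granulocyte precursors, was called lower, from 7.47 to 1.31 CPM (log2 fold change -2.50), while *SPI1* had 218 CPM in both groups. By contrast, the summed T cell markers stayed at or below 0.51 CPM in any sample, and the B cell markers at or below 1.15 CPM. The NK cell markers stayed at or below 1.28 CPM and the fibroblast markers at or below 0.29 CPM, and all 3 erythroid markers were at 0. The epithelial sum lay between 18.5 and 20.7 CPM, from *KRT8* and *KRT18*. The endothelial sum went from between 91.6 and 105.8 CPM in Control to between 163 and 177 CPM with WNK463, nearly all from *PECAM1*. Of the 8 macrophage markers, 5 were tested and 4 were called higher, against 9.62% of all tested genes. Of these, *C1QB*, *C1QC* and *APOE* had at most 4 counts in any Control sample, so they entered the test only through the WNK463 samples. *C1QA*, with 24, 4 and 20 counts in Control, likewise entered only through them. The summed level of the 8 markers went from between 2.44 and 3.47 CPM in Control to between 20.4 and 21.1 CPM with WNK463. The defining macrophage markers *CD163* and *MRC1* had group means of at most 0.04 CPM. The part of these markers in the values below was not tested. In RNA from whole cultures, a change in the share of cells and a change in RNA per cell cannot be told apart.

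The promoters of 4 members are shown because these genes give the main contrasts among the results that follow. *IL1B* and *CXCL8* are the ligands with the smallest p, *CCL23* is the ligand that fell, and *IL7R* had the largest fold change of all members. Each line holds the 250 bases before the annotated start from RefSeq (GRCh38.p14), written 5′ to 3′ on the strand of the gene. The windows are chr2:112836780-112837029 on the minus strand for *IL1B*, chr4:73740319-73740568 on the plus strand for *CXCL8*, chr17:36017973-36018222 on the minus strand for *CCL23* and chr5:35856641-35856890 on the plus strand for *IL7R*. Capitals mark a match, on either strand, to 1 of 4 patterns: AP-1 (TGANTCA), the core of an NF-kB site (GGANTTNCC), the STAT element GAS (TTCNNNGAA) and C/EBP (TTGCNNAA).
IL1B: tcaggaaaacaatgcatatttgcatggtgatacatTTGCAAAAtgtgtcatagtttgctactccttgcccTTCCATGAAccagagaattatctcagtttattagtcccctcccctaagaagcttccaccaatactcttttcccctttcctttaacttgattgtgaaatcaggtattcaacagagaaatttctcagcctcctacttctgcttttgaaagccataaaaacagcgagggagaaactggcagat
CXCL8: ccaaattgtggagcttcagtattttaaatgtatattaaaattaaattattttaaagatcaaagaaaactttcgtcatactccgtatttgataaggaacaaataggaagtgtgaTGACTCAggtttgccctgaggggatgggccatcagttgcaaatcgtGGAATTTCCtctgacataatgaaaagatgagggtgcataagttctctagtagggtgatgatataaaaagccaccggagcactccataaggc
CCL23: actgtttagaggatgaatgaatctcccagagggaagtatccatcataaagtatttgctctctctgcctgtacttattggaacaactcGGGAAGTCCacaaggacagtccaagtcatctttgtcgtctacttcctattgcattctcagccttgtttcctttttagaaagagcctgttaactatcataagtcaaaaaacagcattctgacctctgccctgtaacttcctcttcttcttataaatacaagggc
IL7R: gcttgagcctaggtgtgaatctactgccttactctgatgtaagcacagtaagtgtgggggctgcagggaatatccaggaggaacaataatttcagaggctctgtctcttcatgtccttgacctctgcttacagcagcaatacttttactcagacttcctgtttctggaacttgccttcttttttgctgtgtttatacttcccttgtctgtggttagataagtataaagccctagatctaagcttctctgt
In the *CXCL8* promoter the AP-1 match TGACTCA begins at -137 and the NF-kB match GGAATTTCC at -91, counted from the start. The *IL1B* promoter holds a C/EBP match at -215 and a GAS match at -180, and the *CCL23* promoter holds 1 NF-kB match at -163. The *IL7R* window holds none of the 4 patterns. RefSeq gave 80 promoters for 49 of the 62 members, several starts for some genes. Of all 35116 promoters of this length, 6.57% held the AP-1 pattern, 3.67% the NF-kB pattern, 6.57% the GAS pattern and 9.05% the C/EBP pattern. Of the 17 promoters of members called higher, 2, 1, 3 and 3 held these patterns in the same order, and of the 8 promoters of members called lower, 0, 2, 1 and 0. A match is only a stretch of letters and is no measurement of binding.

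Of the 62 members, 51 were tested and 11 were left out by the default filter on low counts. Among the tested members 17 were called (33.3%), 12 higher and 5 lower with WNK463, against a background of 15.2% of all 11973 tested genes. The background was 9.62% called higher and 5.55% called lower. Without a limit on the fold change, 39 tested members passed (76.5%), 30 higher and 9 lower, against 70.8% of all tested genes (35.5% higher and 35.3% lower). The median absolute log2 fold change was 0.79 over the tested members and 0.40 over all tested genes. The CPM values of the groups did not overlap for 41 tested members (80.4%), 30 above and 11 below Control, against 73.5% of all tested genes (37.1% above and 36.4% below).

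Ligands and receptors are given apart, and the difference between them was not tested. Among 11 tested ligands, 5 were called higher and 1 lower, with a median log2 fold change of 0.90. This median lay between 0.66 (without WNK463 replicate 3) and 1.47 (without Control replicate 1) when a sample was left out. Of the called ligands, *CCL3* and *IL23A* entered the test only through their WNK463 samples and *CCL23* only through its Control samples. Among 37 tested receptors, 6 were called higher and 4 lower, with a median of 0.27. With glmTreat the receptors still called were *IL7R*, *CCR6* and *IL2RG* higher and *IL31RA* lower. Of the tested ligands 63.6% passed, and of the tested receptors 78.4%. Over all tested genes the median was 0.02. Dividing by the total counts instead of the TMM-scaled ones raised the median of all tested genes to 0.17. The receptors then split into 10 called higher and 2 lower, with *CXCR4* and *IL27RA* no longer called, and none of the 39 members that passed changed direction. The summed TPM of the 16 ligands went from between 72.7 and 80.1 in Control to between 159 and 166 with WNK463, and that of the 43 receptors from between 1363 and 1404 to between 1839 and 1927. Receptor transcripts were therefore more abundant than ligand transcripts in every sample.

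**Figure D1:**
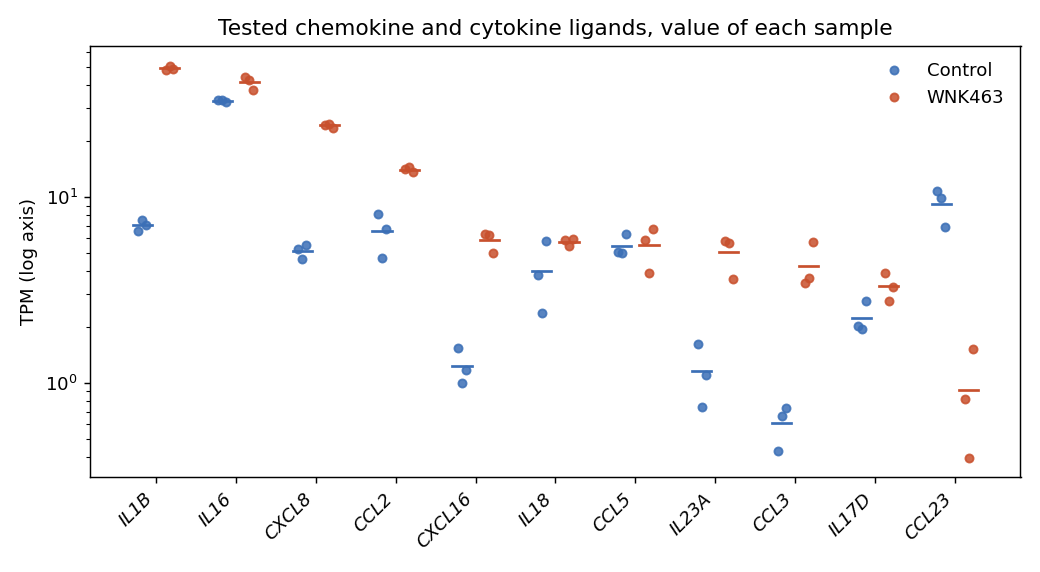
TPM of the 11 tested ligands on a log axis, with 1 point per sample, a line at the mean of each group, and genes ordered by their mean with WNK463. *IL1B* and *CXCL8* lie far above their Control values in all 3 WNK463 samples. In these TPM values *IL16* also lies above its Control points, but by much less. *CCL23* at the right is the ligand whose values fell.

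*IL1B* encodes interleukin-1 beta, the inflammatory cytokine that is made as a precursor and cut by caspase-1. It was measured at 5.42, 6.04 and 5.73 CPM in the Control samples and at 34.1, 35.1 and 34.9 CPM in the WNK463 samples. The WNK463 samples differed little from each other and all lay far above Control. This is a 6.06-fold rise (log2 fold change 2.60, standard error 0.10, adjusted p = 1.8e-13). By TPM, *IL1B* went from the third most abundant of the 16 ligands to the first, and its share of their summed TPM from between 8.24% and 10.3% to between 29.02% and 30.9%.

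*CXCL8* encodes interleukin-8, the chemokine that draws neutrophils. It had 4.57, 4.12 and 4.57 CPM in Control and 18.0, 17.9 and 18.3 CPM with WNK463. The groups were well apart, and the rise was 4.08-fold (log2 fold change 2.03, standard error 0.12, adjusted p = 5.9e-11). The related neutrophil chemokine *CXCL1* had 6 counts and *CXCL2* 2 counts over all 6 samples, too few to be members, and *CXCL3* and *CXCL5* had 0.

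3 other ligands of lower level were called higher. *CXCL16*, a chemokine that is also found as a membrane protein, had 1.95, 1.23 and 1.34 CPM in Control and 4.77, 4.77 and 4.47 CPM with WNK463. *CCL3*, also known as MIP-1 alpha, had 0.18, 0.27 and 0.30 CPM in Control and 1.27, 1.34 and 2.11 CPM with WNK463. *IL23A*, which encodes the p19 subunit of interleukin-23, had 0.91, 0.41 and 0.61 CPM in Control and 2.84, 2.73 and 1.79 CPM with WNK463. None of these groups overlapped, but *CCL3* had only 3 to 5 counts per Control sample and *IL23A* 6 to 15. *CCL3* and *IL23A* entered the test only through their WNK463 samples. The log2 fold changes of the 3 ligands were 1.62, 2.59 and 1.90 in the same order, with standard errors of 0.24, 0.44 and 0.35. The adjusted p-values were 1.1e-05, 4.3e-05 and 1.1e-04 from edgeR. With limma on log2(TPM + 1) the value of *CCL3* was 1.69. An antisense gene on the opposite strand covers 74.6% of the exon bases of *CCL3*, and whether the counting used strand is not given in the sources used here. *IL12B*, the partner subunit that *IL23A* needs to form interleukin-23, had 8 counts over all samples.

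*CCL23*, a chemokine that binds CCR1, went the other way. It had 3.29, 3.09 and 2.20 CPM in Control and 0.24, 0.12 and 0.45 CPM with WNK463, or 36 to 54 counts per sample against 2 to 7. All WNK463 values lay below all Control values, and the fall was 10.5-fold (log2 fold change -3.40, standard error 0.41, adjusted p = 8.3e-07). Whichever sample was left out, the log2 fold change stayed between -3.95 and -3.03. *CCL23* could enter the test, and each of these fits, only through its Control counts. In Control *CCL23* was the second of the ligands by mean TPM, and with WNK463 it ranked 13 of 16. Its gene and that of *CCL3*, the nearest other member, lie 70288 bases apart on chromosome 17 of GRCh38, and they changed in opposite directions.

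Of the other tested ligands, *CCL2*, the monocyte chemoattractant MCP-1, passed but was not called, going from 2.65 ± 0.75 to 4.98 ± 0.02 CPM (SD, n = 3 each; log2 fold change 0.90, adjusted p = 0.0015 from edgeR). *IL16*, the most abundant ligand in Control at 32.8 ± 0.49 TPM, had 41.5 ± 3.41 TPM with WNK463 (SD, n = 3 each). In CPM the *IL16* groups overlapped and the log2 fold change of 0.15 did not pass (standard error 0.07, adjusted p = 0.061 from edgeR). With total counts it was 0.30 and passed (adjusted p = 8.7e-04 from edgeR). Of the *IL16* exon bases, 36.0% are shared with *STARD5* on the opposite strand. *CCL5* (RANTES) had a log2 fold change of -0.40, *IL17D* one of 0.44 and *IL18* one of 0.32, with standard errors between 0.23 and 0.28, and none of the 3 passed. 5 ligands were not tested. Among these, *CXCL10*, an interferon-induced chemokine, had 2, 0 and 2 counts in Control and 7, 22 and 21 with WNK463. It entered the test and was called higher in 4 of the 6 fits that left out a sample. In those fits it could enter only through its WNK463 counts, so these calls add no support for a rise. *IL12A* had 4 counts in each Control sample and 0, 1 and 0 with WNK463. *CCL22*, *CCL24* and *CSF1* had at most 11 counts in any sample.

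The pair of soluble antagonists moved apart. *IL1RN* encodes the antagonist that occupies the interleukin-1 receptor without signalling, and *IL18BP* a protein that captures interleukin-18. *IL1RN* rose from 14.8 ± 1.05 to 21.5 ± 2.15 CPM (SD, n = 3 each). Its log2 fold change of 0.54 was smaller than that of *IL1B* (standard error 0.10, adjusted p = 1.1e-04). *IL18BP* fell from between 19.8 and 24.4 CPM to between 10.5 and 12.7 CPM (log2 fold change -0.93, standard error 0.11, adjusted p = 4.3e-07). Of its exon bases, 15.6% are shared with *NUMA1* on the opposite strand.

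**Figure D2:**
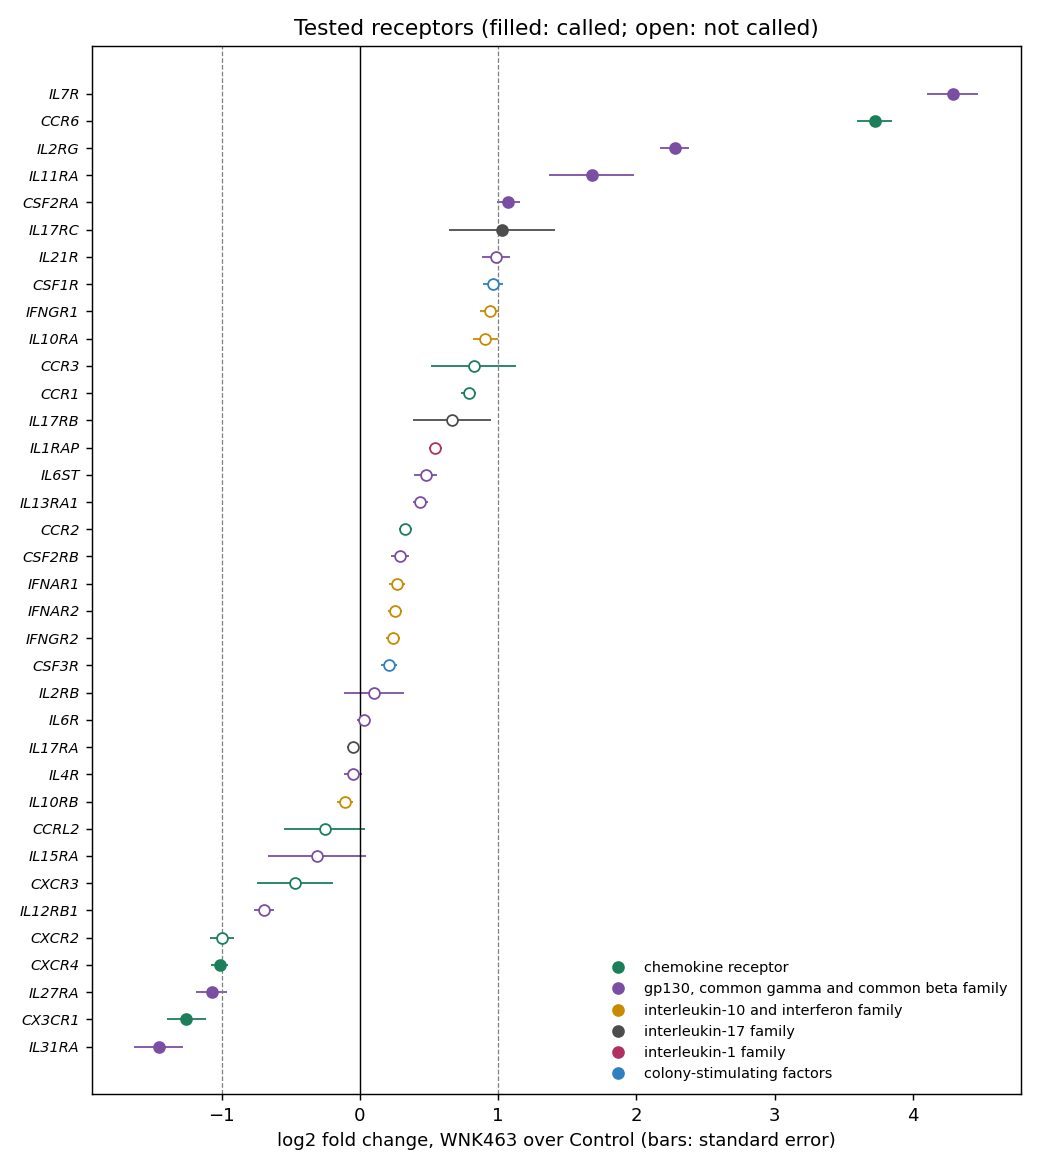
Log2 fold change of 36 tested receptors with its standard error, coloured by family. Filled points are the 10 called receptors, open points the rest, and dashed lines mark a log2 fold change of 1 in each direction. *IL7R*, *CCR6* and *IL2RG* stand well to the right of the other receptors, from 2.28 to 4.29, while the lowest value, that of *IL31RA*, is -1.46.

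The largest change of any member was in *IL7R*, the private chain of the interleukin-7 receptor and best known from lymphocytes. It had 0.67, 1.85 and 2.01 CPM in Control and 31.6, 27.3 and 29.4 CPM with WNK463. Control replicate 1 was the lowest, with 11 counts against 27 and 33, and every WNK463 sample had at least 461 counts. The rise was 19.5-fold (log2 fold change 4.29, standard error 0.18, adjusted p = 1.2e-12), and stayed between 3.91 and 4.56 on the log2 scale whichever sample was left out. *IL7*, its ligand, had 0 counts in all 6 samples, which allows up to 3 counts per sample.

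*IL2RG* encodes the common gamma chain, which the receptors of interleukins 2, 4, 7, 9, 15 and 21 share. It had 6.76, 5.83 and 7.32 CPM in Control and 34.7, 30.9 and 31.3 CPM with WNK463. The groups were clearly separated, with a 4.85-fold rise (log2 fold change 2.28, standard error 0.10, adjusted p = 2.5e-12). Another protein-coding gene annotated on the same strand shares 50.8% of its exon bases, and how such reads were divided is not given in the sources used here. Of the further receptor chains used with the common gamma chain, *IL21R* passed and nearly reached the limit for a call. It went from between 11.5 and 14.7 CPM to between 24.5 and 28.2 CPM (log2 fold change 0.98, standard error 0.10). *IL4R* (-0.05), *IL2RB* (0.10) and *IL15RA* (-0.31) did not pass. *IL13RA1*, which pairs with the *IL4R* product in the receptor of interleukin-13, rose from 73.3 ± 3.23 to 99.3 ± 2.11 CPM (SD, n = 3 each; log2 fold change 0.44). *IL4R* lies 37384 bases from *IL21R* on chromosome 16, and the log2 fold changes of these neighbours were -0.05 and 0.98. The ligand genes *IL2*, *IL4*, *IL7* and *IL21* had 0 counts in all samples, and *IL15* had 1.

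**Figure D3:**
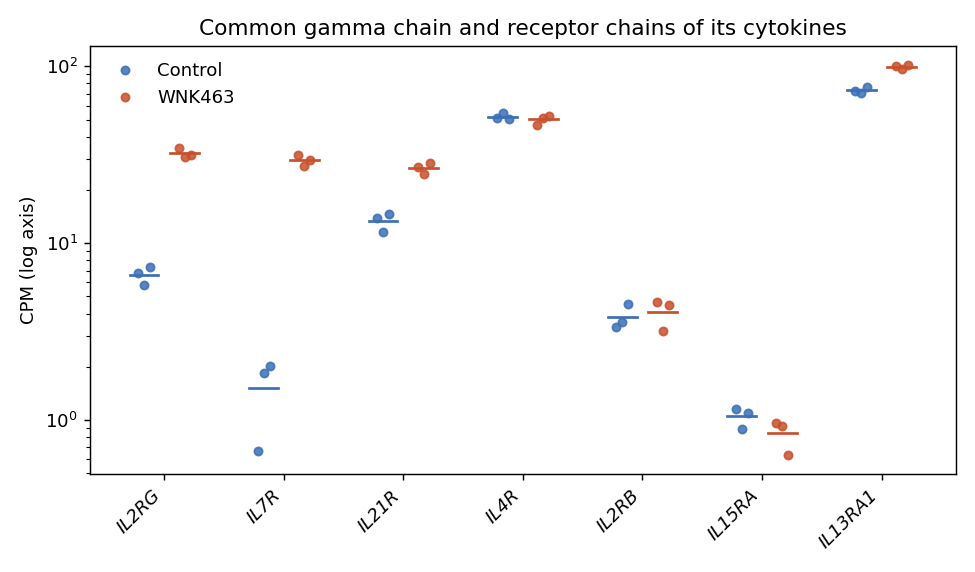
CPM on a log axis for *IL2RG*, for the receptor chains that pair with it and for *IL13RA1*, with 1 point per sample and a line at the mean of each group. All 3 WNK463 points of *IL7R*, *IL2RG* and *IL21R* lie above their Control points, by most for *IL7R*, and the points of *IL4R*, *IL2RB* and *IL15RA* overlap between the groups.

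In the gp130 and related receptors the changes went in both directions. *IL6ST*, which encodes gp130 itself, rose from between 20.8 and 24.4 CPM to between 30.3 and 31.9 CPM (log2 fold change 0.48). *IL6R*, one of the most abundant receptors by TPM, had 252 ± 6.07 CPM in Control against 257 ± 7.92 CPM under WNK463 (SD, n = 3 each), with a log2 fold change of 0.03 with a standard error of 0.05 and did not pass. *IL11RA* had 1.77, 1.23 and 0.73 CPM in Control and 3.02, 5.0 and 3.96 CPM with WNK463. That is a 3.20-fold rise from few counts (log2 fold change 1.68, standard error 0.31, adjusted p = 9.3e-05).

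2 receptors of this group were called lower. *IL27RA*, the private receptor chain for interleukin-27, had 16.1, 16.5 and 15.7 CPM in Control and 7.31, 8.31 and 7.28 CPM with WNK463. *IL31RA*, the receptor of the itch cytokine interleukin-31, had 8.52, 7.13 and 8.78 CPM in Control and 2.90, 3.31 and 2.68 CPM with WNK463. Each gene had all WNK463 values below all Control values, with log2 fold changes of -1.07 (standard error 0.11, adjusted p = 1.2e-07) and -1.46 (standard error 0.17, adjusted p = 7.1e-07). With limma on log2(TPM + 1) they passed but were not called, with -0.78 for *IL27RA* and -0.70 for *IL31RA*. *IL31RA* lies 12242 bases from *IL6ST* on chromosome 5, which rose. *IL12RB1*, shared by the receptors of interleukins 12 and 23, fell from between 42.5 and 46.3 CPM to between 26.0 and 28.98 CPM (log2 fold change -0.69) without reaching the limit for a call. Its partner chains *IL23R* and *IL12RB2* were near the detection limit, with 4 counts in all for *IL23R* and at most 12 in any sample for *IL12RB2*.

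*CSF2RA* encodes the private chain of the GM-CSF receptor. It had 17.2, 15.1 and 14.9 CPM in Control and 33.9, 33.1 and 32.3 CPM with WNK463, a 2.11-fold rise (log2 fold change 1.07, standard error 0.08, adjusted p = 3.0e-09). The common beta chain *CSF2RB*, which completes this receptor, rose less, from 66.4 ± 5.15 to 81.2 ± 4.09 CPM (SD, n = 3 each; log2 fold change 0.29). *CSF1R*, the receptor of M-CSF that marks the monocyte lineage, rose from between 53.2 and 62.4 CPM to between 102.9 and 122.6 CPM (log2 fold change 0.97, standard error 0.07). *CSF3R*, the G-CSF receptor of granulocytes, changed by a log2 fold change of 0.21 and passed (adjusted p = 0.0024 from edgeR). All 4 of these receptor genes passed higher, against 35.5% of all tested genes. The rises differed in size, and only *CSF2RA* was called. Of the 5 tested macrophage markers, 4 were called higher in the same samples, against 9.62% of all tested genes. These 4 entered the test only through the WNK463 samples. *MARCO* did not pass (log2 fold change -0.27). *CD163* and *MRC1* were hardly detected. A link between these markers and the receptors was not tested. The ligand genes *CSF2* and *CSF3* had 2 counts and 1 count over all samples.

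Among the 12 chemokine receptors, 10 were tested, 4 passed higher and 4 lower, against 35.5% and 35.3% of all tested genes. *CCR6*, the receptor of the chemokine CCL20, had 5.18, 9.74 and 9.33 CPM in Control and 115, 97.6 and 105.9 CPM with WNK463. The lowest WNK463 sample was far above the highest Control sample, and the rise was 13.2-fold (log2 fold change 3.72, standard error 0.13, adjusted p = 6.7e-14, the smallest of any member). Whichever sample was left out, this log2 value stayed between 3.47 and 3.86. A noncoding gene annotated on the same strand shares 69.2% of the *CCR6* exon bases. *CCL20* itself had 3 counts over all samples.

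*CXCR4*, the receptor that holds hematopoietic cells in the marrow through CXCL12, had 145.8, 143.6 and 156.3 CPM in Control and 79.0, 70.7 and 71.0 CPM with WNK463. The groups were well separated and the fall was 2.02-fold (log2 fold change -1.01, standard error 0.06, adjusted p = 5.1e-11). The value lies at the limit for a call. It was not called with glmTreat, which tests against the limit itself, and the fold was below the limit with at least 10 counts in every sample (-0.997), without Control replicate 3 (-0.99), without WNK463 replicate 2 (-0.99), without WNK463 replicate 3 (-0.99), with total counts (-0.86) and with limma on TPM (-0.82). *CXCL12* had 0 counts in all samples.

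*CX3CR1*, the fractalkine receptor of monocytes, had 10.5, 11.7 and 10.9 CPM in Control and 4.83, 4.83 and 4.21 CPM with WNK463. All WNK463 values were lower, by a log2 fold change of -1.25 (standard error 0.14, adjusted p = 2.6e-07), or of -0.91 and not called with limma on log2(TPM + 1). *CXCR2*, a receptor of interleukin-8, had 28.3, 28.8 and 30.7 CPM in Control and 16, 13.7 and 14.4 CPM with WNK463. The fall was 0.99 on the log2 scale (standard error 0.09, adjusted p = 1.6e-08), which is just outside the limit for a call where *CXCR4* is just inside. *CXCR1*, the other receptor of interleukin-8, had 3 counts over all samples.

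The CC receptors *CCR1* and *CCR2*, which guide monocytes, were abundant and rose moderately. *CCR1* had 113, 119 and 131 CPM in Control and 214, 206 and 206 CPM with WNK463 (log2 fold change 0.79, standard error 0.06). *CCR2* had 220, 215 and 221 CPM in Control and 270, 278 and 275 CPM with WNK463 (log2 fold change 0.33, standard error 0.04). *CCR3* was low and passed with a log2 fold change of 0.82 (adjusted p = 0.023 from edgeR), but not without Control replicate 1, Control replicate 3, WNK463 replicate 2 or WNK463 replicate 3 (adjusted p from 0.051 to 0.14). *CXCR3* (-0.47) and *CCRL2* (-0.25) did not pass. *CCR3*, *CCR1*, *CCR2* and *CCRL2* lie within 249394 bases on chromosome 3, and of these the first 3 passed higher.

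**Figure D4:**
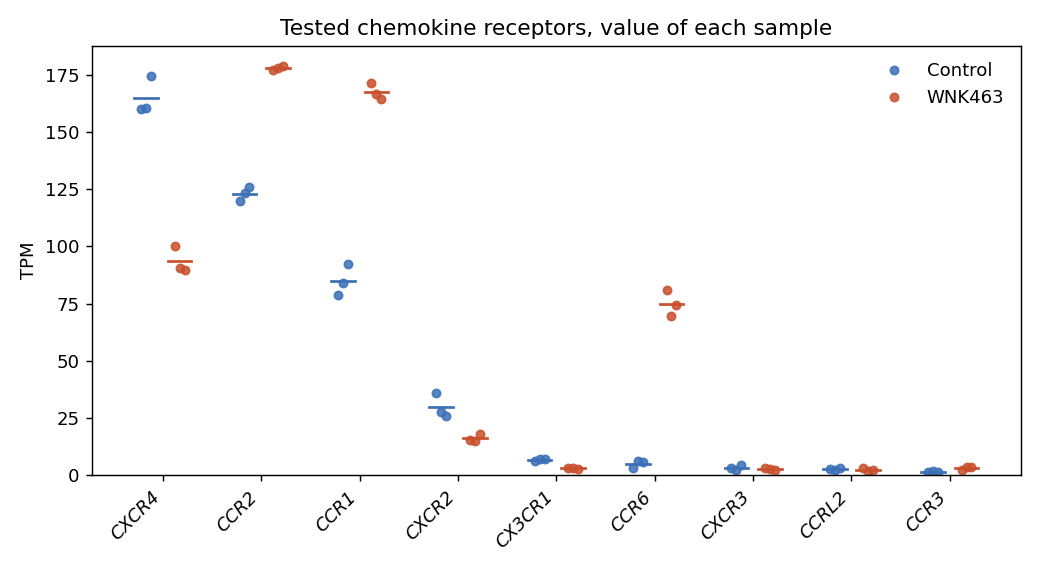
TPM of 9 tested chemokine receptors, with 1 point per sample, a line at the mean of each group, and genes ordered by their Control mean. *CXCR4* is the highest in Control, whereas *CCR2* and *CCR1* lie above it with WNK463, and *CCR6* moves from near 5 TPM to near 75 TPM.

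By TPM the order of the chemokine receptors changed. In Control the order was *CXCR4* at 165 ± 8.06, *CCR2* at 122.9 ± 3.03, *CCR1* at 84.9 ± 6.83 and *CXCR2* at 29.8 ± 5.43 TPM (SD, n = 3 each), with no overlap between neighbours. With WNK463 it was *CCR2* at 177.9 ± 0.89, *CCR1* at 167.4 ± 3.49, *CXCR4* at 93.4 ± 5.96 and *CCR6* at 75.0 ± 5.87 TPM (SD, n = 3 each), again with no overlap between neighbours. *CCR6* thereby went from rank 7 to rank 4 of the 12, and among all 43 receptors from rank 27 to rank 10.

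The interferon and interleukin-10 receptors passed mostly in the same direction, with smaller changes. Of 6 tested, 5 passed higher and none was called, against 35.5% of all tested genes passing higher and 15.2% called. *IFNGR1*, the ligand-binding chain for interferon gamma, rose from between 38.5 and 45.7 CPM to between 77.2 and 81.0 CPM (log2 fold change 0.94), and *IFNGR2* changed by 0.24. *IFNAR1* and *IFNAR2*, the chains of the type I interferon receptor, had log2 fold changes of 0.27 and 0.26. *IL10RA* rose from between 11.9 and 12.9 CPM to between 22.6 and 24.4 CPM (log2 fold change 0.91), while its partner *IL10RB* had -0.11 and did not pass. *IFNAR2*, *IL10RB*, *IFNAR1* and *IFNGR2* follow each other within 249448 bases of chromosome 21. A single further gene on the same strand shares 44.2% of the exon bases of *IFNAR2* and 38.1% of those of *IL10RB*. The interferon gamma gene *IFNG* had 0 counts in all samples.

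In the interleukin-1 family the accessory protein *IL1RAP*, which the receptors of interleukin-1 and interleukin-33 need to signal, was abundant. It had 264, 279 and 284 CPM in Control and 414, 390 and 403 CPM with WNK463, without overlap (log2 fold change 0.54, standard error 0.05, adjusted p = 9.5e-09). By TPM it went from rank 4 to rank 1 of the 43 receptors, at 112.8 ± 5.65 and 183.6 ± 4.57 TPM (SD, n = 3 each). The ligand-binding chain *IL1R1* had 8 counts and the decoy *IL1R2* 1 count over all 6 samples. In the interleukin-17 family, *IL17RA* had the highest TPM, 74.7 ± 3.47 in Control against 78.9 ± 0.33 under WNK463 (SD, n = 3 each), and its log2 fold change of -0.05 did not pass. *IL17RC* was called with a log2 fold change of 1.03 from 7 to 15 counts per Control sample against 19 to 34 (standard error 0.38, adjusted p = 0.023). It entered the test only through its WNK463 samples. It did not pass without Control replicate 3 or without WNK463 replicate 1 (adjusted p = 0.13 in each). With limma on log2(TPM + 1) and no filter the log2 fold change was 0.60.

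*IL4I1*, an L-amino acid oxidase that was first found as an interleukin-4 induced gene and is not a cytokine, was called higher. It had 13.9, 8.85 and 11.0 CPM in Control and 50.0, 44.2 and 52.4 CPM with WNK463. The groups did not overlap, with a log2 fold change of 2.11 (standard error 0.12, adjusted p = 2.8e-11). On the same strand, 13.1% of its exon bases belong also to *NUP62*.

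**Figure D5:**
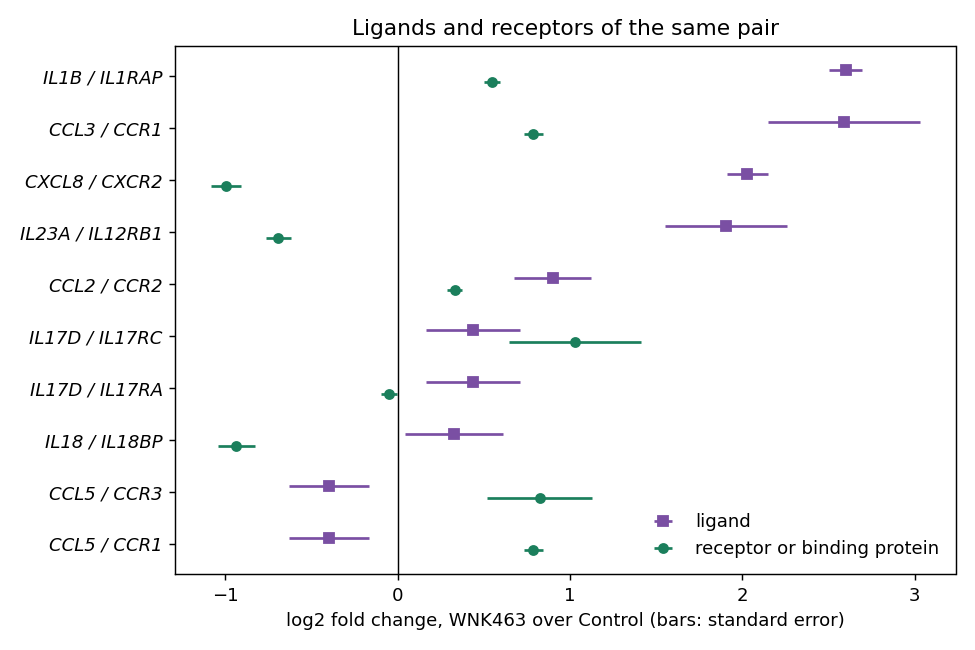
Log2 fold changes of a ligand (squares) and of its receptor or binding protein (circles) for 10 listed pairs with both genes tested, with standard errors as bars. In the pairs *CXCL8* with *CXCR2* and *IL23A* with *IL12RB1*, the ligand lies to the right of 0 and the receptor to the left.

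Ligands were then set beside their receptors in a list of 83 textbook pairs. Ligand and receptor both passed and were both higher in 3 pairs, which were *IL1B* with *IL1RAP*, *CCL3* with *CCR1* and *CCL2* with *CCR2*. The ligand was higher and the receptor lower in *CXCL8* with *CXCR2* and in *IL23A* with *IL12RB1*. Several pairs share a gene, so they are not independent. In 46 pairs the receptor was tested and the ligand had too few counts to be a member, which includes the ligands of *IL7R*, *CCR6*, *CXCR4* and *CX3CR1*.

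The signalling genes behind these receptors changed in both directions, and 70.8% of all tested genes passed, against which their counts are to be read. Of 10 tested JAK and STAT genes, 4 passed higher and 4 lower, and *JAK2*, the kinase of the GM-CSF receptor, was called, from 38.5 ± 3.83 to 89.5 ± 5.03 CPM (SD, n = 3 each; log2 fold change 1.22, adjusted p = 7.2e-11 from edgeR). *JAK3*, the kinase bound to the common gamma chain, had 4.19 CPM in Control and 4.38 with WNK463 and did not pass. Of 16 feedback genes, 8 passed higher and 2 lower, and *SOCS2*, a STAT5 target that limits cytokine signalling, was called with a log2 fold change of 1.27. Of 17 tested genes of interleukin-1 signalling and processing, 7 passed higher and 5 lower. *NLRC4*, an inflammasome sensor, and the kinase *IRAK2* were called higher with log2 fold changes of 1.55 and 1.75. *IRAK2* had 2 to 10 counts per Control sample and entered the test only through its WNK463 samples. *PYCARD*, the inflammasome adaptor, had -0.96 and *IRAK1* -0.87, while *CASP1* (-0.13) and *NLRP3* (0.04) did not pass.

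Of 21 tested genes of chemokine receptor signalling and scavenging, 5 passed higher and 10 lower. The scavenging receptors *ACKR2* and *ACKR3* were called lower with log2 fold changes of -1.11 and -2.12. *ACKR3* entered the test only through its Control samples. The G protein regulators *RGS16* and *RGS18* were also called lower, with -1.24 and -1.36. *RGS1* had 3, 1 and 3 counts in Control and 22, 23 and 29 with WNK463. *DPP4*, a protease that trims CXCL12 and other chemokines, rose from 22.1 to 41.1 CPM (log2 fold change 0.89). Among related ligands and receptors outside the symbol rule, 9 were tested, 3 passed higher and 2 lower. *EBI3*, a subunit of interleukin-27, rose from 0.36 ± 0.12 to 4.67 ± 0.09 CPM (SD, n = 3 each; log2 fold change 3.67, adjusted p = 8.5e-09 from edgeR), whereas *IL27*, which encodes the other subunit, had 0 counts. *LIF*, a gp130 cytokine, fell by 2.19 on the log2 scale, from 11 to 22 counts per Control sample to 3 to 5 with WNK463. *EBI3* entered the test only through its WNK463 samples, and *LIF* only through its Control samples. *MIF* had a log2 fold change of -0.94 and its receptor gene *CD74* 0.79.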

How the data were processed

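RNA was taken from MV4-11 cells, mRNA was captured with beads, and libraries were sequenced on the Illumina Novaseq X Plus. The submitters' processing notes name fastp, Bowtie2, HISAT2, StringTie, RSEM, DESeq2, edgeR and GRCh38, without roles or versions. The authors deposited estimated counts per gene and sample, rounded to whole numbers, and TPM values that sum to 1000000 per sample. The deposited table also holds group means, fold changes and p-values of the authors' own comparison, which were not used.

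The counts were analysed with edgeR 4.0.16 in R 4.3.3, with TMM factors, the default filter on low counts (11973 genes left) and the quasi-likelihood test between the 3 Control and 3 WNK463 samples. Adjusted p-values are Benjamini-Hochberg values over all tested genes, and every adjusted p in the text is from this fit unless another is named. Standard errors were derived from the log2 fold change and the F statistic. For 3 against 3 samples the smallest two-sided p of an exact permutation test is 0.10. All replicate pairs differed by more than sampling noise (chi-square of their counts over its degrees of freedom, 2.68 to 7.40). Positions are from GENCODE 29 (GRCh38).

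Members and lists were chosen with earlier results of these data known. Members named with values were the called ones, the 5 of each role with the highest mean TPM, and their ligand or receptor partners. Other members were named after their values were seen. Alternatives were total-count scaling, DESeq2 size factors in edgeR, DESeq2 1.42.0, other filters and thresholds, a replicate block, limma 3.58.1 on log2(TPM + 1) and log2(TPM + 0.1), and each sample left out. The procedure was tested on simulated data. The values of 1 member are not reported here, though counts over all members include it.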

Additional observations from a re-analysis of the deposited data

How the results depend on the processing

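Of 429 combinations of a named member and an alternative, 414 kept their direction and their side of an adjusted p of 0.05, 7 no longer passed, 8 newly passed and 0 changed direction. The members *IL17RA*, *IL4R* and *IL10RB* are not among these. They went from below to above 0 with total counts, where *IL17RA* passed. With total-count scaling, 10 receptors were called higher and 2 lower, against 6 and 4. With at least 10 counts in every sample, 3 ligands were called higher and 0 lower, against 5 and 1, since 8 ligands were then tested, and 740 genes in all were higher. With no filter on low counts 2 ligands were called lower, *CCL23* and *IL12A*. Without a limit on the fold change 22 receptors were higher and 7 lower, and over all genes 4251 and 4222. With glmTreat, which tests against the fold limit itself, 3 receptors were higher and 1 lower, and over all genes 610 and 345. With limma on log2(TPM + 1) 0 receptors were called lower with or without the filter, and 266 and 268 of all genes. With log2(TPM + 0.1) these were 2 and 366.

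Leaving out each sample in turn gave 5 to 7 ligands called higher, 1 lower, 6 to 8 receptors higher and 3 to 5 lower, and 1154 to 1236 and 663 to 703 of all genes. The median log2 fold change of the tested ligands was 1.47 without Control replicate 1 against 0.90, with 12 ligands in the test against 11. Among all 39 members that passed, 1 did not pass with DESeq2. The labels do not say whether the replicate numbers pair the samples. The correlations of their deviations were 0.02, -0.01 and -0.05. These show no strong pairing, but with 3 replicates per group they cannot exclude a shared batch. With the replicate block 5 ligands were called higher and 1 lower, and 6 receptors higher and 4 lower. The default filter on low counts kept 11 members out of the test.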
